A study of Mus musculus with 3 samples.

Results

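The 45 genes described here are a chosen set of interferon-stimulated genes of the mouse and of genes that lie upstream of them. The latter are sensors of nucleic acid and of bacterial products, and receptors, an adaptor and transcription factors that connect sensors with stimulated genes. All 45 were taken by gene symbol from the 46603 Ensembl genes counted in RNA-Seq of polyadenylated RNA. They comprised 1 interferon ligand, 4 receptor chains, 10 sensors (8 of nucleic acid, with Tlr2 and Tlr4 for bacterial products), 1 adaptor, 5 transcription factors, 22 induced effectors and 2 enzymes that act on nucleic acids. The libraries were 3 replicates of KO-actin MEFs, a line of mouse embryonic fibroblasts that lack endogenous β-actin and express a β-actin tagged with a nuclear localization signal (NLS). All 3 were of this 1 genotype and belonged to 1 condition, so every value below is a basal level and nothing was compared with untransfected, wild-type or stimulated cells. Neither the labels nor the study's methods name a treatment with interferon, virus or nucleic acid, and neither says whether the line was 1 clone or whether the replicates were separate cultures. Tests between these libraries therefore measured only the spread between them, which may be technical.

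The libraries held 49932446, 49587453 and 44383636 counts. Values are CPM, the counts for every 1e6 counts of a library, after scaling of the library sizes, and levels of different genes were compared only as CPM per kilobase of merged exons. A limit of 3 counts, the most that a count of 0 allows, corresponded to 0.0601, 0.0609 and 0.0671 CPM in replicates 1, 2 and 3 and covers counting error only. The gene removed and supplied again, Actb, was counted at 1078, 1114 and 1063 CPM, and these counts do not separate the endogenous gene from the NLS-tagged copy. Of 10 fibroblast markers, 8 were above 3 counts in every library, led by Vim at 962 CPM per kilobase. Lum was at 0 in every library, Fap had 0, 0 and 1 counts and Dcn had 8, 8 and 6. The label therefore rests on the collagen genes, Vim, Fn1 (306 CPM per kilobase) and Pdgfrb (22.7), while Pdgfra was at 0.495. Apart from Vim, the fibroblast markers named here were chosen after their values were seen. Fewer cells that express a gene and less RNA per cell cannot be told apart in such bulk libraries.

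Nucleic acid that enters a cell, or escapes from its own compartments, is bound by cytosolic or endosomal sensors, which signal through adaptors such as MAVS and STING to the transcription factors IRF3 and IRF7. These switch on interferon genes. Secreted interferon binds its receptor on the same and on neighbouring cells, and the kinases JAK1 and TYK2 then activate STAT2, which with IRF9 is part of the complex ISGF3. ISGF3 binds the interferon-stimulated response element (ISRE) in front of the effector genes, whose proteins block entry, translation, replication and release of viruses. Many sensors and factors of the pathway are themselves induced by interferon, and fibroblasts are a classic source of interferon β.

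The ISRE core was searched in the RefSeq promoter windows of GRCm38.p6, which run from 250 bases before to 50 bases after each start site. Windows were matched for 38 of the 45 genes, without Dhx58, Zbp1, Tlr4, Usp18, Oas2, Mx1 and Mx2. The core was spelled GAAANNGAA and read on both strands. Promoters of 5 effectors that carry it are printed below with that of Ifit2, in which no core was found, because levels within the Ifit family, and those of Bst2 and Isg15, are compared further on. Each sequence is the 160 bases that end at the start site, 5′ to 3′ in the direction of transcription, with the core in capitals and overlapping cores joined.
Isg15 (chr4:156200819-156200978, minus strand): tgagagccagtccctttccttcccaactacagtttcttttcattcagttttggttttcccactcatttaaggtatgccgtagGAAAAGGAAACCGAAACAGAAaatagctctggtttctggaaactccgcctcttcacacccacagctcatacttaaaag
Ifitm2 (chr7:140955962-140956121, minus strand): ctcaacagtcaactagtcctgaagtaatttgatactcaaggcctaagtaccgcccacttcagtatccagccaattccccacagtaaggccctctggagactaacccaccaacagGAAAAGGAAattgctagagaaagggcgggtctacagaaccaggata
Bst2 (chr8:71537473-71537632, minus strand): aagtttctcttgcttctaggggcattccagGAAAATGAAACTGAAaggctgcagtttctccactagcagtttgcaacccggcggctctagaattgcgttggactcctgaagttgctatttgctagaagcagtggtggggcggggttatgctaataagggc
Ifit1 (chr19:34640729-34640888, plus strand): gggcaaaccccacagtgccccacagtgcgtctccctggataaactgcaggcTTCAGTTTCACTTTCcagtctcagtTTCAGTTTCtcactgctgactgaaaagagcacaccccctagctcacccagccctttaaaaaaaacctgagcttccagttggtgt
Ifit3 (chr19:34583369-34583528, plus strand): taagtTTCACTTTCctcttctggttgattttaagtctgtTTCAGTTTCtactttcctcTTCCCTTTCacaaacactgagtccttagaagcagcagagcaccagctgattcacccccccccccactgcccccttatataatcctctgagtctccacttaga
Ifit2 (chr19:34550534-34550693, plus strand): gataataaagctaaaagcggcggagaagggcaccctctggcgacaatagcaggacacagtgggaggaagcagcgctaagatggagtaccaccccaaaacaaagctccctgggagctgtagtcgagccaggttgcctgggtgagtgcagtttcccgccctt
The 3 cores of Isg15 overlap in 1 run that starts 66 to 78 bases before the start site, and the 3 of Ifit3 lie apart from each other between 102 and 155 bases before it. The 3 cores of Ifit1, 2 of them overlapping, start between 84 and 109 bases before the start site, and all cores of Ifit1 and Ifit3 are on the opposite strand. Ifitm2 has a single core 46 bases before its start. Bst2 has 2 overlapping cores. The second annotated start of Ifit2 (window chr19:34550928-34551087) also had none.

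Among the matched effectors, 12 of 18 had at least 1 ISRE core, against 3 of 7 sensors (Ddx58, Ifih1 and Eif2ak2), 1 of 5 transcription factors (Stat2), 1 of 2 nucleic acid enzymes (Adar) and 0 of 4 receptors. Over all matched members the share was 44.7%, and it was 9.76% of the 27025 genes in the table. The gamma-activated site, an element of the response to interferon γ spelled TTCNNNGAA, was found in 12 of 38 members, or 31.6%, against 9.55% of all genes. These are matches of letters in a short window and do not show that a factor binds there. Effectors with a core did not share a level, since their mean CPM per kilobase ran from 0.0033 for Rsad2 to 195 for Ifitm2, with a median of 0.494. The 6 effectors without a core had a median of 2.15 and ran from 0.0236 for Oasl1 to 13.8 for Ifit2.

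Of the 45 members, 36 had more than 3 counts in every library, beside 58.9% of 21624 protein-coding genes. A mean of at least 1 CPM was reached by 29 members, beside 52.1% of protein-coding genes. In CPM per kilobase, 26 members were above the median of all protein-coding genes, which was 0.490, and 13 were above their upper quartile, 8.88. Over the 12726 protein-coding genes with more than 3 counts in every library, the median was higher, at 6.43. The members of each step of the pathway did not sit at the same level. The medians were 14.2 CPM per kilobase for the receptors, 4.36 for the transcription factors, 1.89 for the 10 sensors (0.573 without Tlr2 and Tlr4) and 0.0868 for the induced effectors. The effectors held the 3 highest members of the list and ran down to 0.0033, while the receptors stayed between 8.69 and 18.6, as the plot of levels by role shows.

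**Figure D1:**
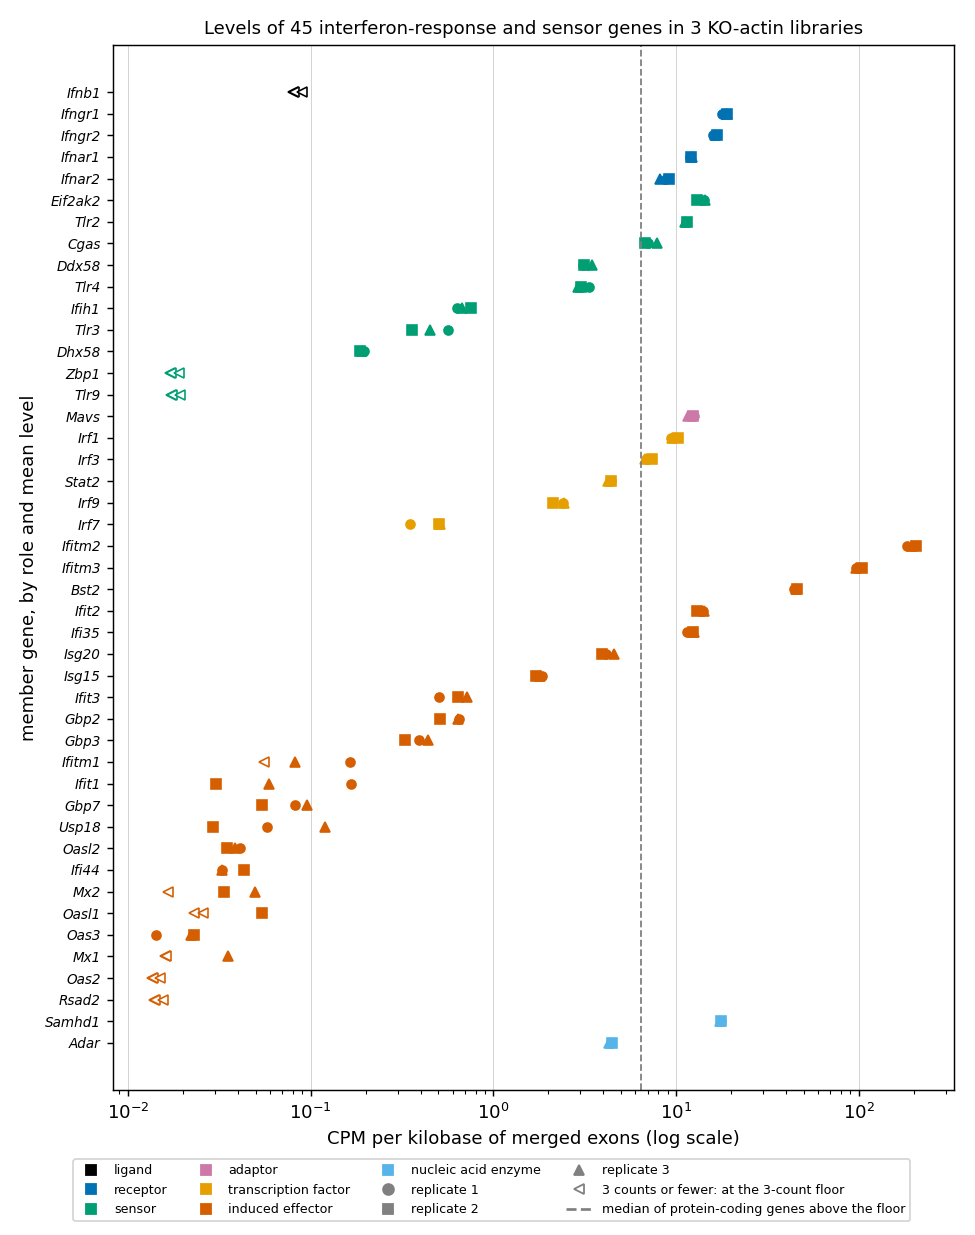
Level of each of the 45 members in the 3 KO-actin libraries (x axis, CPM per kilobase of merged exons, log scale), grouped by role and ordered by mean level within a role. Filled symbols are single libraries, open triangles mark 3 counts or fewer and are drawn at the limit of 3 counts, and the dashed line is the median of protein-coding genes above that limit (6.43). Receptors lie to the right of the line, while effectors run from 195 for Ifitm2 to below the limit of 3 counts for Rsad2.

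Ifnb1 (chr4:88522025-88522774), the single-exon gene of interferon β, had 0 counts in each library. The 8 further interferon genes of a wider pathway list (Ifna2, Ifna4, Ifna5, Ifng, Ifnk, Ifne, Ifnl2 and Ifnl3) were also at or under 3 counts in every library, and only Ifne had any, with 0, 1 and 1. A count of 0 allows a level of up to 3 counts in that library. Many Ifna and Ifnl genes are close copies of each other, and how the authors counted reads that match several genes is not given.

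All 4 receptor chains were well above the limit of 3 counts. Ifnar1 and Ifnar2 pair to bind type I interferon, and Ifngr1 and Ifngr2 to bind interferon γ. Ifngr1 was at 50.6, 54.4 and 54.1 CPM in replicates 1, 2 and 3, and Ifngr2 at 59.7, 63.3 and 61.5 CPM. Per kilobase, Ifngr1 stood highest at 18.6 ± 0.748 (SD, n = 3), followed by Ifngr2 at 16.3 ± 0.468, Ifnar1 at 12.1 ± 0.192 and Ifnar2 at 8.69 ± 0.530. No 2 of these ranges overlapped, but Ifnar1 passed Ifngr2 when the longest transcript replaced the merged exons as the length. Between the chains of one receptor the ratio was 1.14 for interferon γ and 1.39 for type I interferon, and 1.51 and 1.93 by the longest transcript. Ifnar1, Ifnar2 and Ifngr2 lie near each other on chromosome 16, between positions 91372783 and 91565623. Ifnar2 shares 9.46% of its exons with the annotated gene Gm21970.

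The 10 sensors fell into abundant, scarce and silent genes. Eif2ak2, which encodes PKR, a kinase that stops translation on binding double-stranded RNA, was at 72.5, 66.7 and 74.1 CPM. It was the highest sensor per kilobase at 13.9 ± 0.758 (SD, n = 3). Tlr2, a surface receptor for bacterial lipoproteins and not for nucleic acid, was at 34.2, 34.7 and 33.7 CPM, or 11.3 ± 0.169 per kilobase. Cgas, which makes the second messenger that activates STING on binding cytosolic DNA, was at 29.0, 28.0 and 32.3 CPM, or 7.22 ± 0.545 per kilobase. These 3 sensors had ranges apart from each other and from all sensors below them.

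The RIG-I-like receptors detect viral RNA in the cytosol, and their 3 genes differed widely. Ddx58, which encodes RIG-I, was at 21.9, 22.2 and 24.4 CPM. Ifih1, which encodes MDA5, was at 5.15, 6.17 and 5.53 CPM. Dhx58, which encodes LGP2, a regulator of the other two, was at 0.641, 0.609 and 0.627 CPM from 28 to 32 counts per library. Per kilobase, Ddx58 exceeded Ifih1 by a factor of 4.71 (4.16 to 5.10 over the libraries) and Dhx58 by 16.9 (15.9 to 18.0). The order was the same in each library.

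The Toll-like receptors spanned the whole range from abundant to silent. Tlr4, the receptor of bacterial lipopolysaccharide, was at 18.5, 16.7 and 16.2 CPM, and its level per kilobase, 3.08 ± 0.210, overlapped that of Ddx58. Tlr3, the endosomal receptor of double-stranded RNA, was at 2.95, 1.87 and 2.35 CPM from 147, 92 and 105 counts. Tlr9, the receptor of unmethylated DNA, had 0, 0 and 1 counts, and Zbp1, the sensor of nucleic acids in the Z conformation, had 0, 1 and 1, so no fold was computed for either. Tlr2 exceeded Tlr3 per kilobase by a factor of 24.7, with 20.0, 32.1 and 24.8 in replicates 1, 2 and 3.

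Mavs, the mitochondrial adaptor of RIG-I and MDA5, was at 41.7, 41.4 and 39.1 CPM and 12.2 ± 0.419 per kilobase (SD, n = 3), 17.7 times the level of Ifih1. Sting1, the adaptor of the DNA branch, had only 92, 81 and 55 counts, or 0.574 CPM per kilobase. Cgas thus exceeded its own adaptor by a factor of 12.6, with 10.4, 11.3 and 17.4 in replicates 1, 2 and 3. On the pooled counts the factor was 12.4, with an exact 95% counting interval of 10.9 to 14.3. Replicates 1 and 3 lay outside that interval, which covers counting error only. Mavs, by contrast, was above both of its sensors in every library.

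Among the transcription factors, Irf1 and Irf3 lay above the median of protein-coding genes above 3 counts in every library (6.43 CPM per kilobase). Stat2 and Irf9 lay below it, and Irf7 was scarce. Irf1, a factor shared by both interferon responses, was at 37.4, 40.7 and 37.9 CPM and led per kilobase at 9.73 ± 0.452 (SD, n = 3). Irf3, which acts directly downstream of the sensors, was at 23.7, 25.5 and 23.4 CPM, and Stat2 at 26.1, 26.1 and 25.2 CPM. Irf9, the DNA-binding partner in ISGF3, was at 13.0, 11.4 and 13.1 CPM. Irf7, the factor that amplifies interferon production after induction, was at 1.32, 1.91 and 1.92 CPM. The 5 ranges per kilobase did not overlap. Irf3 exceeded Irf7 by a factor of 15.4, with 19.6, 14.7 and 13.3 in the single libraries and 22.5 by the longest transcript. Irf1 exceeded Irf7 by a factor of 21.4, and by 34.1 with the longest transcript. Within ISGF3, Stat2 was at 1.88 times Irf9 per kilobase, with 1.83, 2.09 and 1.75 in replicates 1, 2 and 3.

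The 22 induced effectors were carried by a few genes. Ifitm2, which with Ifitm3 encodes membrane proteins that block the entry of viruses, was at 119.9, 134.8 and 128.5 CPM, and Ifitm3 at 65.3, 70.8 and 65.2 CPM. Bst2 encodes tetherin, which holds budding virions at the cell surface, and was at 40.0, 41.4 and 40.8 CPM. Per kilobase these 3 genes reached 195 ± 11.5, 99.0 ± 4.73 and 45.1 ± 0.791 (SD, n = 3), which put them at percentiles 99.2, 98.0 and 94.4 of protein-coding genes. Ifitm2 alone held 52.2% ± 0.901 of the CPM per kilobase summed over the effectors, and Ifitm2, Ifitm3 and Bst2 together held 90.9% ± 0.577. With Ifit2 and Ifi35 the share was 97.8% ± 0.231. Ifitm2 is partly uncertain, because 40.9% of its exons overlap the annotated gene Gm45717. Transcripts of other genes hold 48.5% of its 50-base stretches. These 2 values are not independent, since 36.1% of the stretches are found in Gm45717 itself.

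The families of effectors were not expressed evenly. Some Ifit proteins bind viral RNA that lacks the host cap structure. Ifit2 (chr19:34550694-34576419) was at 55.5, 51.4 and 55.7 CPM. Ifit3, the next of the 3 genes along the chromosome, had 44, 55 and 56 counts, and Ifit1 had 22, 4 and 7. Per kilobase Ifit2 exceeded Ifit3 by a factor of 22.2 (19.8 to 28.0 over the libraries) and Ifit1 by 162 (85.1 to 428, and 305 without replicate 1). The level of Ifit3 is uncertain, because 51.2% of its 50-base windows occur also in Ifit3b (22, 16 and 16 counts, named after its values were seen). The gene that stands high is the one of the 3 in which no ISRE core was found in the window searched, as seen in the promoters printed above, and the 2 low ones have 3 each. Among the other effectors a core was found in high genes (Ifitm2, Ifitm3 and Bst2) and in low ones (Oas3 and Rsad2). None was found in the high Ifi35 or the low Oasl1. A link between core and level was not tested.

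In the Ifitm cluster on chromosome 7, between positions 140954837 and 141010770, Ifitm1 lies between Ifitm2 and Ifitm3 and had 9, 1 and 4 counts. Ifitm2 was at 1.97 times Ifitm3 per kilobase, with 1.90, 1.97 and 2.04 in replicates 1, 2 and 3. Ifitm3 over Ifitm1 was 1114 on the pooled counts, with an exact 95% counting interval of 664 to 2039. The single libraries gave 585, 5633 and 1176, outside that interval in replicates 1 and 2, and the ratio of means, 1120 over all libraries, was 1999 without replicate 1. Ifitm1 was thus within the limit of 3 counts in replicate 2, while both of its neighbours were among the highest members of the list.

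The GTPases of the Gbp family, which attack the vacuoles of intracellular pathogens, were low throughout their cluster on chromosome 3, between positions 142530342 and 142638008. Gbp2 had 82, 63 and 72 counts, Gbp3 had 64, 53 and 64 and Gbp7 had 23, 15 and 24. Gbp3 exceeded Gbp7 per kilobase by a factor of 4.59 to 6.08 over the libraries, and all 3 gave the same order. The smallest value of each of these genes was in replicate 2.

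Active oligoadenylate synthetases, which are not all members of the family, make the messenger that activates RNase L, and Mx proteins are GTPases that trap viral nucleocapsids. Oas2 had 3, 0 and 2 counts, Oas3 had 5, 8 and 7, Oasl1 had 1, 7 and 1 and Oasl2 had 13, 11 and 11. Mx1 had 0, 2 and 6 counts, and Mx2, which the annotation lists as a polymorphic pseudogene, had 3, 6 and 8. Rsad2, which encodes viperin, a virus-inhibitory enzyme, had 0, 1 and 1. None of these 7 genes reached 1 CPM, and their ranges per kilobase overlapped those of their neighbours in the order.

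Isg15, a ubiquitin-like protein that is attached to other proteins after induction, had 70, 64 and 61 counts, or 1.79 CPM per kilobase. Usp18, the protease that removes it and dampens the interferon receptor, had 8, 4 and 15. Bst2 exceeded Isg15 by a factor of 25.2 per kilobase (23.9 to 26.7 over the libraries), although both promoters carry the core. Isg20, an RNA exonuclease, was at 7.67, 7.28 and 8.53 CPM. Ifi35 was at 19.7, 21.4 and 21.6 CPM, with 16.8% of its exons shared with an antisense gene, and Ifi44 had 10, 13 and 9 counts. Ifit2 and Ifi35 exchanged places when the longest transcript was used, with a ratio of 1.14 against 0.924.

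**Figure D2:**
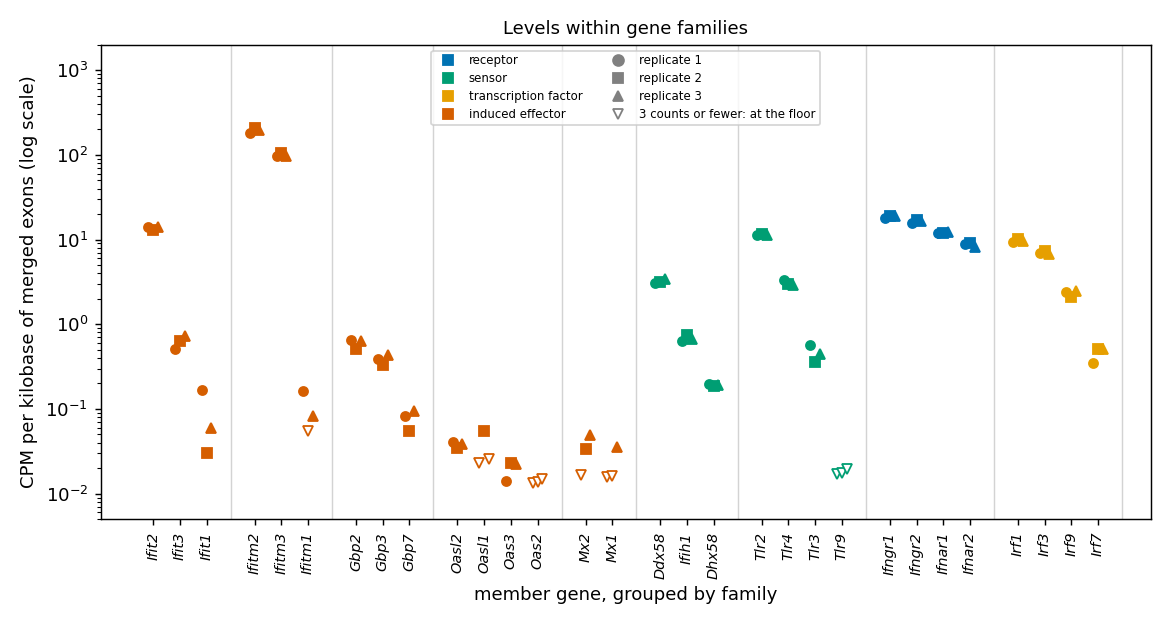
Level of each member within its gene family (y axis, CPM per kilobase of merged exons, log scale) in replicates 1 to 3 of the KO-actin cells, with open triangles at the limit of 3 counts. Ifit2 and Ifitm2 and Ifitm3 stand far above Ifit1 and Ifitm1 of their own clusters, whereas the 4 receptor chains lie between 8.12 and 19.1.

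Sensors and effectors were then set side by side. Above 3 counts in every library were 8 of 10 sensors and 16 of 22 effectors, beside 58.9% of protein-coding genes. A mean of at least 1 CPM was reached by 7 sensors and 10 effectors, beside 52.1% of protein-coding genes. The sensor median was 1.87, 1.88 and 1.80 CPM per kilobase in replicates 1, 2 and 3, and the effector median was 0.165, 0.0543 and 0.108. The effector median lay among genes with at most 24 counts per library. In the 3 libraries 6, 6 and 7 effectors exceeded the sensor median, and 3, 4 and 3 exceeded the highest sensor. Over the 8 nucleic-acid sensors alone the median was lower, at 0.598, 0.557 and 0.564, and 8, 8 and 9 effectors exceeded it. With 3 libraries an exact sign-flip permutation test cannot give a p below 0.25, so these orders rest on the ranges. Of 38 pairs of neighbours in the order within a role, 24 had ranges that did not overlap, and 2 of these changed places when the longest transcript was used.

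The enzymes that act on nucleic acids differed little between libraries. Samhd1, which degrades deoxynucleotides and so starves reverse transcription, was at 161.2, 160.7 and 159.8 CPM, or 17.6 ± 0.0757 per kilobase (SD, n = 3). Its highest library was 1.01 times its lowest. Adar, which edits double-stranded RNA and keeps a cell's own RNA from MDA5, was at 35.8, 36.2 and 34.8 CPM. Per kilobase Samhd1 exceeded Adar by a factor of 3.93 to 4.07 over the libraries, and by 6.79 with the longest transcript. Adar overlaps Chrnb2 over 16.8% of its exons, and Chrnb2 had 36, 45 and 34 counts.

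Variation between the libraries was tested for each gene by a Pearson chi-square of its counts, adjusted over the 13814 genes that reached 10 counts in each of the libraries. Of the 45 members 32 passed that filter, and 10 of these varied beyond counting error at an adjusted p below 0.05, beside 43.9% of all genes tested. The 13 others (Ifnb1, Tlr9, Zbp1, Ifit1, Ifi44, Usp18, Oas2, Oas3, Oasl1, Mx1, Mx2, Rsad2 and Ifitm1) were too low. The 10 were Ifnar2, Ifngr1, Eif2ak2, Tlr3, Cgas, Tlr4, Irf1, Ifit2, Ifitm2 and Ifitm3. They did not rise in 1 library, since 2 of them were highest in replicate 1, 5 in replicate 2 and 3 in replicate 3. Leaving out replicate 2 reduced the 10 to 2, Cgas and Ifitm2, and the share of all genes called to 12.5%. Leaving out replicate 1 reduced them to 6 and the share of all genes to 33.1%. Tlr4 was at the threshold, with an adjusted p of 0.0491 by the chi-square test, and was lost under most other settings.

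The differences that passed were small in most genes. Ifitm2 had the smallest adjusted p, 3.68e-09, with a highest library only 1.13 times the lowest. Tlr3 had the widest spread among the 10, with replicate 1 at 1.58 times replicate 2 and an adjusted p of 0.0077. Cgas was highest in replicate 3 by 0.12 on the log2 scale against the mean of the libraries, and Eif2ak2 lowest in replicate 2 by -0.09. Wider still was Gbp7, whose highest library was 1.76 times the lowest on 15 to 24 counts, but its adjusted p was 0.307.

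The effectors did not move together from library to library. Over the 12 effectors tested, the median log2 CPM, taken relative to each gene's mean, was 0.0028, -0.068 and 0.044 in replicates 1, 2 and 3. Over all genes tested it was 0.00095, 0.0031 and -0.0026. Ifitm2, Ifitm3 and Bst2 were highest in replicate 2, while Ifit2, Isg20, Gbp2, Gbp3, Gbp7, Isg15 and Oasl2 were lowest there. With the 6 effectors of at least 100 counts the median in replicate 2 was 0.029. GC content moved with this replicate. Members below 50% GC had a median deviation of -0.057 in replicate 2 and 6 of 16 were above 0, and members at 50% or more had 0.025 and 11 of 16. Among all genes 29.9% and 73.0% of these classes were above 0, and its part in the deviations of the members was addressed only by a fit within bins of GC content, under which 29.9% of all genes and 7 members were called. Of the 10, Eif2ak2, Ifit2, Ifitm3, Irf1 and Tlr4 were lost, while Ifih1 and Isg20 were gained. The effector median in replicate 2 was -0.055 under this fit.

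**Figure D3:**
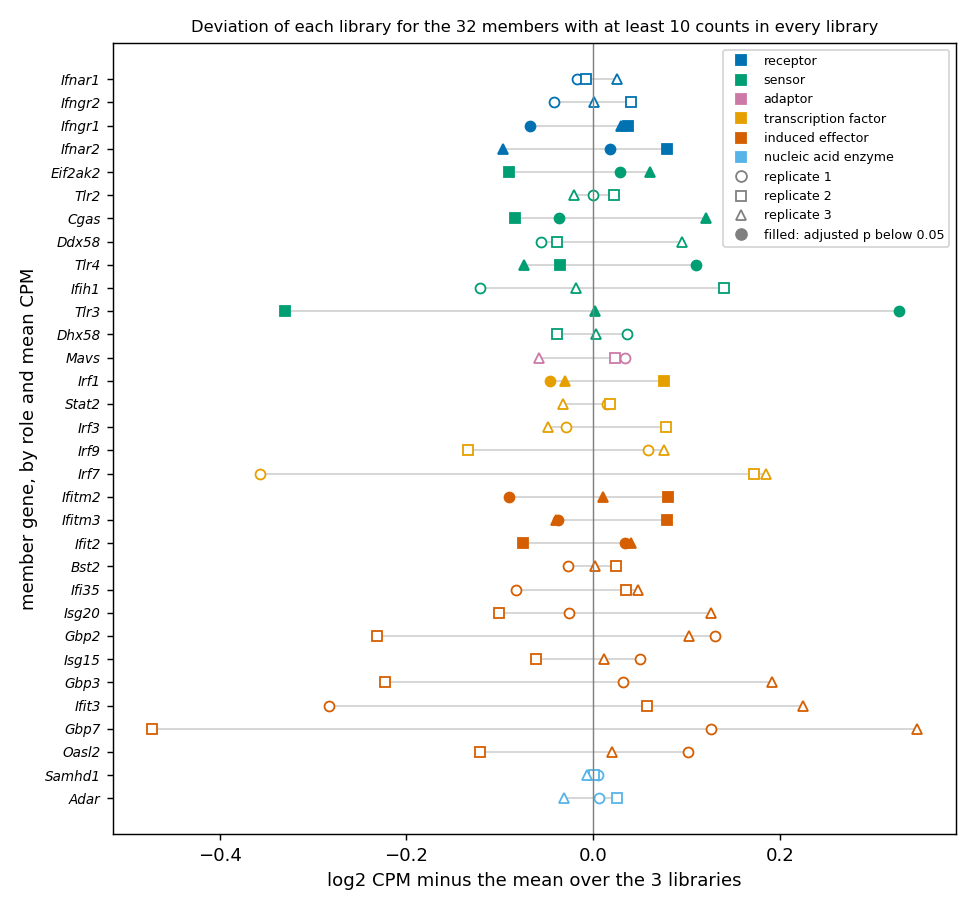
Log2 CPM of a library minus the mean over the 3 libraries (x axis) for the 32 members that passed the filter of 10 counts, grouped by role and ordered by mean CPM. Filled symbols mark the 10 members with an adjusted p below 0.05, and the high and low libraries differ from gene to gene, with replicate 2 lowest for Tlr3 and Gbp7 and highest for Ifitm2 and Ifitm3.

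A wider list of 68 genes was read at the same steps of the pathway. Of these, 46 were above 3 counts in every library, 39 had a mean of at least 1 CPM, and 14 of the 42 tested varied beyond counting error, beside 58.9% and 52.1% of protein-coding genes and 43.9% of all genes tested. The highest were B2m, the light chain of MHC class I, at 507 CPM per kilobase, Ifi30, a lysosomal thiol reductase, at 82.9, and the receptor kinase Jak1 at 36.2. Jak1 exceeded Tyk2, its partner at the type I receptor, by a factor of 11.8. The lowest above the limit were Irf8 with 12, 24 and 5 counts, Oas1a with 4, 4 and 6 and Aim2, a sensor of cytosolic DNA, with 15, 15 and 18. All 5 receptor and kinase genes were above the limit, as were 12 of 15 sensing genes, 4 of 5 transcription factors, 3 of 3 feedback genes and 22 of 32 further effectors, against 0 of 8 interferon genes. The 3 feedback genes (Socs1, Socs3 and Pias1, named after their values were seen) all varied beyond counting error, as did 43.9% of all genes tested.

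**Figure D4:**
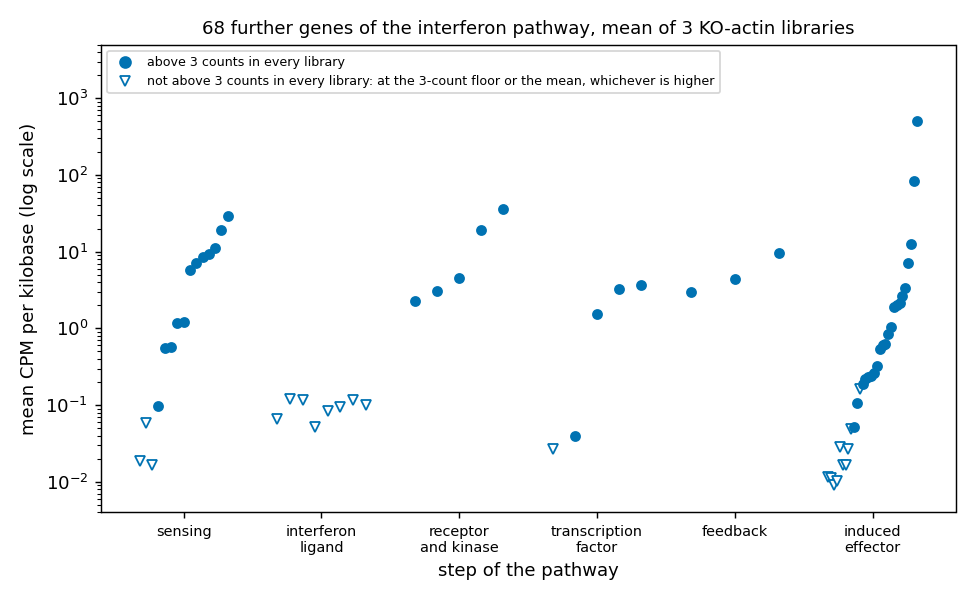
Mean level over the 3 KO-actin libraries of 68 further pathway genes (y axis, CPM per kilobase, log scale) by step of the pathway, with open triangles for genes not above 3 counts in every library. The 8 interferon genes are all open, and the further effectors range up to B2m at 507.

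Blood cells express several of these sensors strongly, and their markers were therefore read as well. Of 10 markers of macrophages and dendritic cells, 3 were above 3 counts in every library. Cd68 was highest at 8.57 CPM, or 6.82 per kilobase, which was above Ddx58 and Tlr4. Cd14, the co-receptor of TLR4, had 395, 417 and 306 counts, or 4.47 CPM per kilobase, and Csf1r had 16, 6 and 11. The summed level of the 10 markers was 15.5, 17.6 and 17.2 CPM. Itgax and Siglech, which define dendritic cells, were at 0 in every library, and Ptprc, the marker of all leukocytes, had 0, 1 and 0 counts (these 3, Cd14 and Csf1r were chosen after their values were seen). None of 5 lymphocyte markers was above the limit in every library, and their sum was 0.160, 0.0203 and 0.0224 CPM. Of the endothelial markers 2 of 5 were, led by Kdr at 2.09 CPM, with a summed level between 2.01 and 2.56 CPM, and of the epithelial markers 2 of 5, led by Krt18 at 37.9 CPM, with a sum between 38.3 and 40.3 CPM. The part of other cell types in the level of Tlr2 or Tlr4 was not tested.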

How the data were processed

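Polyadenylated RNA of 3 replicates of KO-actin MEFs, all in 1 group by their titles, was analysed. For each replicate the authors deposited a table of read counts by Ensembl gene that had not been normalized. The submitters' processing notes name Trimmomatic, FastQC, HISAT2, HTSeq, mm10 and GRCm38. Their versions, the annotation, strandedness and the handling of reads that match several genes are not given in the sources used here, which limits values of overlapping or near-identical genes.

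Scaling used TMM factors (edgeR 4.0.16, R 4.3.3); DESeq2 1.42.0 size factors or plain totals were the alternatives. Lengths, coordinates and exon overlaps came from GENCODE M21 on GRCm38, and promoters from RefSeq on GRCm38.p6. The Pearson chi-square (2 degrees of freedom) was tested on simulated data, adjusted by Benjamini-Hochberg over the 13814 genes that reached 10 counts in each library, and run in Python 3.11.15 with scipy 1.17.1. Shares are means over libraries, ± the SD.

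All 45 members were named. From a list of 68 pathway genes, Sting1, Jak1, Tyk2, the interferon genes and the 3 highest and 3 lowest above 3 counts were named, and from each of 5 marker lists the highest gene; 1 further gene is not reported here. The members and lists were chosen with earlier results of these data known. Alternatives were other scalings, count filters, lengths, a deviance test, GC bins, downsampling and leaving out each replicate; those for level ratios and single CPM values, and the sensors without Tlr2 and Tlr4, were chosen after seeing the data.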

Additional observations from a re-analysis of the deposited data

How the results depend on the processing

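No paired analysis was possible because all libraries belong to 1 condition. The number of members that varied beyond counting error was 10 as reported. It was 6 without replicate 1, 2 without replicate 2 and 7 without replicate 3. The share of all genes called fell with it, from 43.9% to 33.1%, 12.5% and 34.0%. Under the 8 other alternatives the number of members stayed within 1.5 times the reported count, but not always with the same members. Plain totals lost Irf1 and Tlr4 and gained Ddx58 and Irf9. The sensor median of 1.89 CPM per kilobase became 2.61 with the longest transcript 11.4 CPM with no division by length and 0.573 without Tlr2 and Tlr4 (an alternative chosen after seeing the data), and 1.84 to 1.90 when each replicate was left out; the effector median of 0.0868 became 0.339 CPM with no division by length. The median deviation of the effectors in replicate 2 was -0.068 as reported and 0.029 with the 6 effectors of at least 100 counts; the cause was not tested, and fewer genes entered. The alternative without a filter on counts was not run for this deviation, since counts of 0 have no logarithm. Ifit1, which was too low to be tested in the reported fit, was called when genes with a count in any library (adjusted p = 0.0029 by the chi-square test) or at least 1 count in every library (0.0022) entered. Between 35 and 39 members were above the limit under 5 alternatives for the limit or the libraries, and 32 with a limit of 10 counts. Other scalings moved no member's mean CPM by more than 0.670%. The longest transcript moved 16 of 29 level ratios by more than the spread between libraries, and Eif2ak2 over Ddx58 from 4.30 to 2.80. Of the effectors, 10 of 22 had fewer than 10 counts in at least 1 library and were not tested.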

Other observations

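Trex1, an exonuclease that clears cytosolic DNA and is a gene of the wider pathway list, was listed at 0 in every library. Its exons lie wholly within the annotated exons of Atrip, which had 37, 60 and 42 counts, so reads from Trex1 could not be told from reads of Atrip. Trex1 was named after its values were seen.

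Cxcl10 and Psmb9, a chemokine and a proteasome subunit that are classic targets of interferon γ, were both present while no interferon gene of the lists was above 3 counts in any library. Cxcl10 had 182, 243 and 233 counts and Psmb9 had 147, 193 and 113, and both varied beyond counting error between the libraries (adjusted p = 0.0024 and 0.0019 by the chi-square test over all genes). Their low and high libraries were not the same, since Cxcl10 was lowest in replicate 1 and Psmb9 in replicate 3. Psmb9 shares 5.79% of its exons with Tap1, which had 899, 960 and 806 counts. Of the 32 further effectors 22 were above 3 counts in every library, while others were silent or nearly so. Iigp1 had 0, 0 and 0 counts, Gbp4 had 0, 0 and 3, Gbp5 had 1, 2 and 0 and Gbp6 had 0, 2 and 0. All genes named in this paragraph were chosen after their values were seen.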
